A study of Macaca fascicularis with 38 samples.

Results

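The 10 genes described here encode 6 adrenergic receptors (ADRA1A, ADRA1B, ADRA1D, ADRA2A, ADRA2C and ADRB1) and 4 muscarinic acetylcholine receptors (CHRM1, CHRM2, CHRM3 and CHRM4). They were chosen by gene symbol from the 29958 genes of the deposited expression table, and all 10 had a mean level of at least 1 TPM (a transcript level scaled for transcript length and library total), the minimum for a gene to be tested. In total 15324 genes were tested. RNA was sequenced from biopsies of area 46 in the prefrontal cortex of cynomolgus macaques (Macaca fascicularis), of which one preceded and one followed chronic voluntary ethanol drinking. Of 16 animals with both biopsies, 10 were drinkers (5 in cohort 9 and 5 in cohort 13) and 6 were controls (3 in each cohort). These marks stand only in the header of the table, whose column names (such as X10233) are used for single animals. The labels give each of the 38 listed samples an ethanol treatment, so first and second biopsy are the terms used here for animals of both kinds. The sources used here do not give sex, age, the amount drunk or the time between biopsies, and the second biopsies of 6 further animals were not analysed here.

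Noradrenaline and adrenaline act on adrenergic receptors, and acetylcholine acts on muscarinic receptors; all are receptors that signal through G proteins. In textbook outline, the alpha-1 group and CHRM1 and CHRM3 couple to Gq and phospholipase C, the alpha-2 group and CHRM2 and CHRM4 couple to Gi or Go and lower cyclic AMP, and ADRB1 couples to Gs and raises it. In the primate prefrontal cortex, noradrenaline and acetylcholine are known to shape working memory and arousal, with alpha-2A receptors on pyramidal cell spines and M1 receptors among the best studied.

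The libraries held between 11.8 and 36.7 M recovered reads, the deeper ones in cohort 13 (median 31.8 M, against 14.9 M in cohort 9). A receptor's level in a library rested on as few as 27 reads for CHRM2 and as many as 8550 for CHRM1. None of the 10 listed neuronal markers was at 0 in any group, and their summed level ranged from 2886 to 9710 TPM over the libraries. The blood marker list, by contrast, ranged from 18.3 to 20990 TPM. The median change over all tested genes was 0.17 on the log2 scale (second minus first biopsy), and scaling each library to a common median moved that value to -0.041. For the receptors, calls that differ between the scales are therefore stated. The 13 mitochondrially encoded genes held 41.5% ± 10.3 (SD, n = 10) of the TPM in the first biopsies of drinkers and 35.7% ± 5.71 in the second. In controls they held 42.0% ± 9.58 (SD, n = 6) in the first and 37.8% ± 4.38 in the second. In bulk tissue, fewer cells of a type and less RNA per cell cannot be told apart.

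CHRM1, the main Gq-coupled muscarinic receptor of cortical neurons, had the highest level of the 10 in the first biopsies, with a mean of 78.6 TPM ± 24.3 (SD, n = 16). ADRA1B (20.7 ± 7.52), CHRM4 (17.6 ± 5.56) and CHRM3 (15.3 ± 6.12) followed, then ADRA2C (11.3 ± 2.56) and ADRA1D (10.5 ± 5.21). The lower end of the order was ADRA2A (6.82 ± 2.25), ADRB1 (5.31 ± 1.41), ADRA1A (3.18 ± 1.05) and CHRM2 (1.63 ± 1.16). CHRM1 lay above ADRA1B in 16 of 16 animals, and ADRB1 above ADRA1A in 16 of 16. Of the 9 pairs of neighbours in this order, 6 differed by an exact two-sided sign-flip test over animals after Benjamini-Hochberg adjustment over the 9. The 3 that did not were ADRA1B against CHRM4 (exact p = 0.102), CHRM4 against CHRM3 (exact p = 0.0685) and ADRA2C against ADRA1D (exact p = 0.155). In the second biopsies CHRM3 (17.6 TPM) and CHRM4 (17.5 TPM) exchanged places with an exact p of 0.924 for their difference, and the rest of the order was the same.

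**Figure D1:**
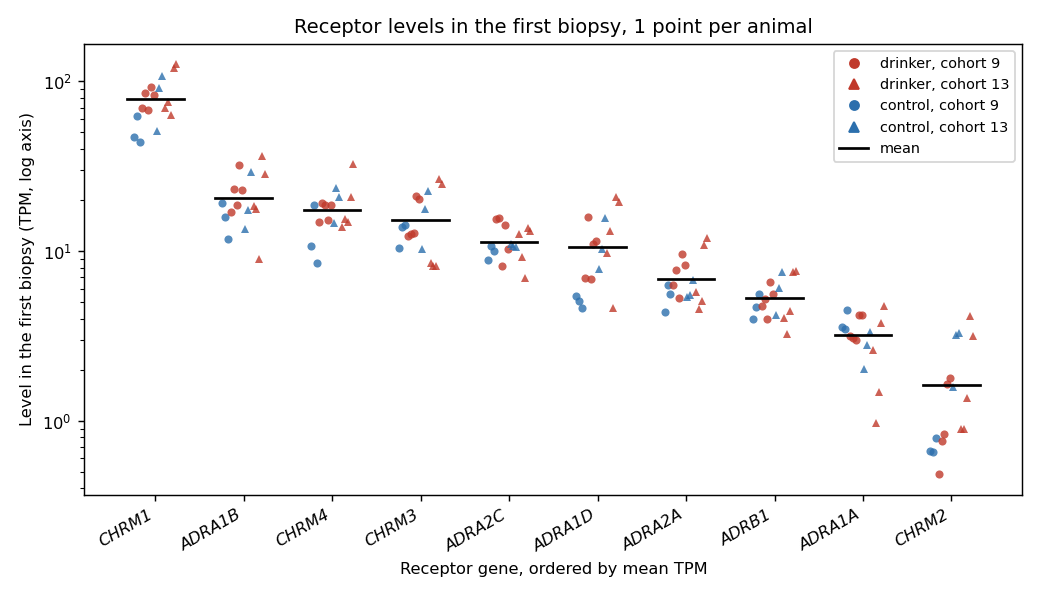
Level of each receptor in the first biopsy (TPM on a log axis), with 1 point per animal, colours for drinkers and controls and shapes for the cohorts; the black bar is the mean over 16 animals. CHRM1 stands alone at the top with a mean of 78.6 TPM, and CHRM2 is lowest at 1.63 TPM, with the cohort 9 animals in the lower part of its spread.

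Across all 16 pairs, 5 of the 10 receptors rose from the first to the second biopsy by limma at a Benjamini-Hochberg adjusted p below 0.05, and none fell. They were CHRM2, ADRB1, ADRA1A, ADRA2A and ADRA1B. Among all tested genes 32.9% were called higher and 3.69% lower, so a count of 5 in 10 stands against a broad upward movement of the table. The median change over the 10 receptors was 0.26 on the log2 scale, beside 0.17 over all tested genes. After median scaling, 1 of the 10 was called, CHRM2, with 9.7% of all genes called higher and 17.1% lower. The plot of first and second biopsies for each animal shows these levels without any fit.

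**Figure D2:**
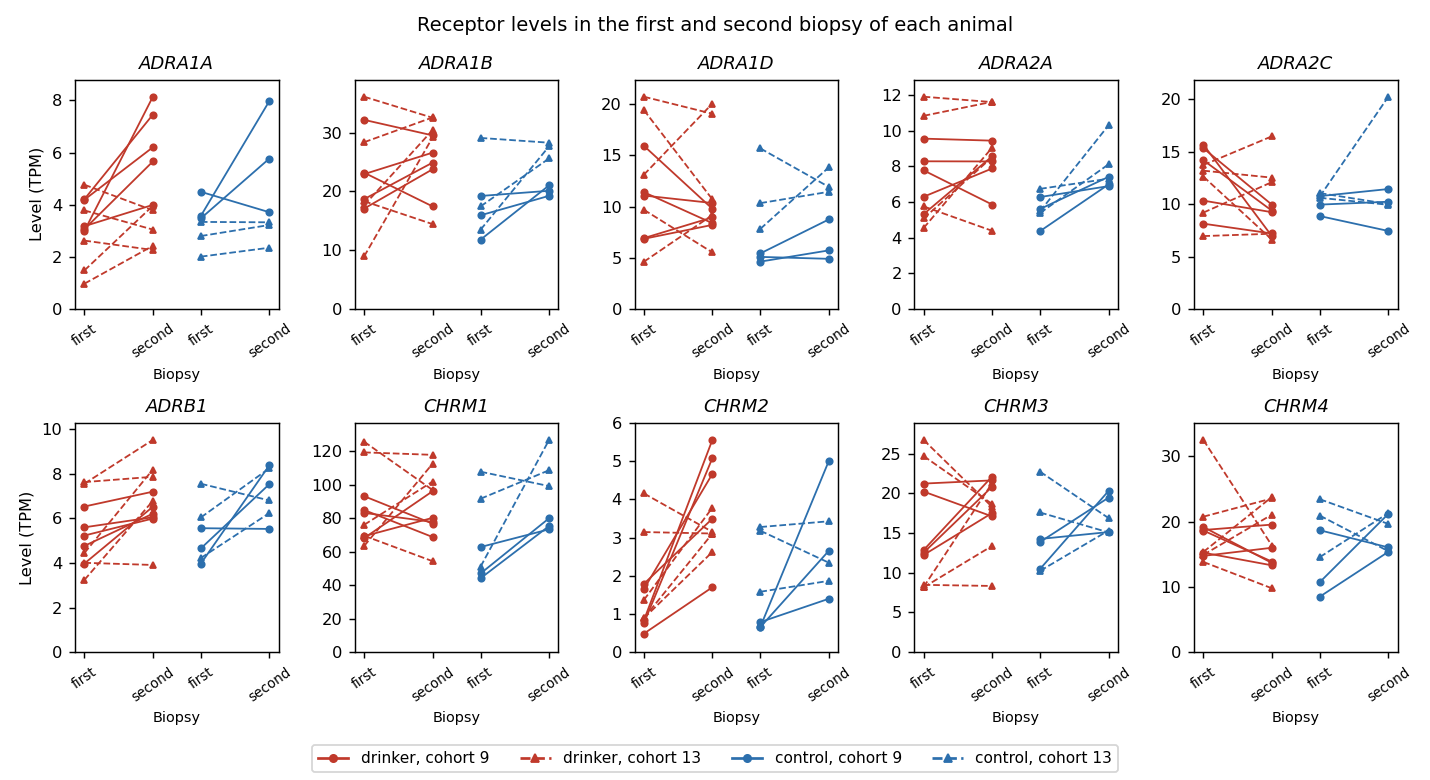
Level in TPM (linear axes from 0, a separate scale per gene) in the first and second biopsy of each animal; each line joins the biopsies of 1 animal, drinkers at the left of a panel and controls at the right, with solid lines for cohort 9 and dashed lines for cohort 13. CHRM2 was higher in the second biopsy of 13 of 16 animals, whereas CHRM4 was higher in 8 and lower in 8.

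Of the Gq-coupled alpha-1 receptors, ADRA1A and ADRA1B were called higher over all pairs. In drinkers the ADRA1A level had a lowest, median and highest value of 0.969, 3.12 and 4.77 TPM in the first biopsies and of 2.26, 3.98 and 8.14 TPM in the second. In controls these were 2.01, 3.41 and 4.49 TPM, then 2.35, 3.52 and 7.98 TPM. The first and second biopsies overlapped in both kinds of animal, and the highest second values all came from cohort 9. ADRA1A was higher in the second biopsy of 11 of 16 animals, with a log2 change of 0.38 ± 0.12 (SE; limma adjusted p = 0.0174). Median scaling left 0.17 ± 0.076 (adjusted p = 0.102), which ends the call.

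The ADRA1A estimates differed between the cohorts, though the test of that difference did not pass. In cohort 9, a drinker went from 2.99 to 8.14 TPM, another from 3.06 to 5.66, and the others from 3.17 to 3.99, from 4.21 to 7.46 and from 4.19 to 6.20. The cohort 9 controls went from 3.57 to 7.98, from 3.48 to 5.77 and from 4.49 to 3.71 TPM. All but the last of these 8 animals had the higher value in the second biopsy. In cohort 13, ADRA1A was higher in 4 animals and lower in 4, with means of 2.72 TPM ± 1.24 and 3.05 TPM ± 0.652 (SD, n = 8). The log2 change was 0.59 ± 0.16 in cohort 9 (SE; limma adjusted p = 0.0104) and 0.18 ± 0.16 in cohort 13 (adjusted p = 0.591), and the test of the difference between cohorts gave an adjusted p of 0.661.

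ADRA1B, the most abundant adrenergic receptor in these biopsies, had a lowest, median and highest level of 8.93, 18.5 and 36.1 TPM over all first biopsies and of 14.4, 26.1 and 32.6 TPM over the second. The ranges overlapped over most of their length, and 11 of 16 animals were higher in the second biopsy. Its log2 change was 0.33 ± 0.12 (SE; limma adjusted p = 0.0439). The call was lost in 10 of the 16 fits that left out 1 animal (without X10197, X10198, X10200, X10203, X10204, X10207, X10227, X10229, X10232 or X10233; adjusted p up to 0.0838). Median scaling gave 0.11 (adjusted p = 0.487). ADRA1D, the alpha-1 subtype with a long amino-terminal tail, had a mean of 10.5 TPM ± 5.21 in the first and 10.4 TPM ± 4.28 in the second biopsies (SD, n = 16). Its log2 change was 0.034 ± 0.12 (SE; limma adjusted p = 0.843), with 8 animals higher and 8 lower.

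The Gi-coupled alpha-2 receptors had estimates of opposite sign. ADRA2A, the receptor through which guanfacine and clonidine act in cortex, had a lowest, median and highest level of 4.37, 6.02 and 11.9 TPM in the first biopsies and of 4.38, 8.19 and 11.6 TPM in the second. All 6 controls and 5 of the 10 drinkers were higher in the second biopsy. The log2 change over all pairs was 0.26 ± 0.097 (SE; limma adjusted p = 0.0397). That call was lost in 9 of the 16 fits without 1 animal (without X10197, X10198, X10200, X10203, X10204, X10227, X10229, X10232 or X10233; adjusted p up to 0.0819) and after median scaling (0.048, adjusted p = 0.720). ADRA2A showed no called change within drinkers (0.17, adjusted p = 0.269) or within controls (0.41, adjusted p = 0.291).

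ADRA2C, a second alpha-2 subtype of the brain, had first-biopsy values in drinkers of 6.96, 12.9 and 15.7 TPM (lowest, median and highest) and second-biopsy values of 6.62, 9.31 and 16.5 TPM. In controls the values were 8.87, 10.7 and 11.1 TPM, then 7.45, 10.1 and 20.3 TPM. The groups overlapped, and the control value of 20.3 TPM, from animal X10233, stood apart from the other 5. On TPM as deposited the log2 change in drinkers was -0.28 ± 0.14 (SE; limma adjusted p = 0.119). After median scaling ADRA2C fell in drinkers by 0.54 on the log2 scale (SE 0.16; limma adjusted p = 0.0191), with lower values in 9 of 10 drinkers. In controls the scaled change was -0.049 ± 0.20 (adjusted p = 0.949). No receptor passed the limma test of the drinker change against the control change on that scale. TPM rescaled without mitochondrially encoded genes also called ADRA2C lower in drinkers (-0.43, limma adjusted p = 0.0326), and limma-voom gave -0.45 (adjusted p = 0.0540).

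ADRB1, the Gs-coupled beta-1 receptor, rose across all pairs. Its lowest, median and highest levels were 3.24, 5.0 and 7.63 TPM in the first biopsies and 3.91, 6.80 and 9.53 TPM in the second. The ranges overlapped, while 13 of 16 animals were higher in the second biopsy, among them 9 of 10 drinkers and 4 of 6 controls. The log2 change was 0.34 ± 0.090 (SE; limma adjusted p = 0.00859), and the call held in each of the 16 fits without 1 animal (adjusted p from 0.00547 to 0.0210). Median scaling gave 0.13 ± 0.065 (adjusted p = 0.141). ADRB1 had close estimates in cohort 9 (0.35 ± 0.13) and cohort 13 (0.33 ± 0.13), with a difference of -0.017 ± 0.18 between them.

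CHRM2, the Gi-coupled M2 receptor known as an autoreceptor on cholinergic terminals, had the largest change of the 10. In cohort 9 drinkers its first-biopsy levels were 0.485, 0.761, 0.831, 1.65 and 1.79 TPM, and the second-biopsy levels of the same animals were 1.7, 5.08, 5.56, 4.67 and 3.5 TPM. In cohort 9 controls the levels went from 0.661 to 5.01, from 0.656 to 2.66 and from 0.788 to 1.40 TPM. All 8 cohort 9 animals, drinkers and controls alike, were higher in the second biopsy, although the lowest second values lay below the highest first values.

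The cohort 13 drinkers went from 0.890 to 2.63, from 0.891 to 3.11, from 1.37 to 3.78, from 4.16 to 3.15 and from 3.15 to 3.11 TPM. The cohort 13 controls went from 1.58 to 1.87, from 3.18 to 2.34 and from 3.28 to 3.43 TPM. In cohort 13 the 3 drinkers with the lowest first values were higher afterwards, the other two drinkers were not, and the controls moved in both directions. The biopsies of drinkers X10226 (0.890 to 2.63) and X10227 (0.891 to 3.11) and of control X10232 (1.58 to 1.87) carry different RNA codes in their titles. In those pairs biopsy and code cannot be told apart. Over all 16 pairs CHRM2 rose by 0.77 ± 0.16 on the log2(TPM + 1) scale (SE; limma adjusted p = 0.00264), from a mean of 1.63 to 3.31 TPM. At such low levels the added 1 TPM shrinks the estimate. With 0.1 added in its place the log2 change was 1.16 ± 0.24 (adjusted p = 0.00211).

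CHRM2 remained called after median scaling (0.56 ± 0.12 SE; limma adjusted p = 0.00380) and in each of the 16 fits without 1 animal, with log2 changes from 0.70 to 0.84. The log2 change was 1.21 ± 0.19 in cohort 9 (adjusted p = 7.07e-04) and 0.33 ± 0.19 in cohort 13 (adjusted p = 0.426). The difference between the cohorts' changes was -0.88 ± 0.26 and did not pass over all genes (adjusted p = 0.501; unadjusted p = 0.00315). All cohort 9 libraries carry 1 RNA code, which is not used in cohort 13, so cohort and code cannot be told apart. In pairs with 1 RNA code, the CHRM2 change in cohort 13 was 0.083 ± 0.22 (SE; limma adjusted p = 0.9995). Over all receptors, 3 of 10 rose in cohort 9 (CHRM2, ADRA1A and ADRB1; 30.5% of all genes were called higher and 4.69% lower) and none was called in cohort 13 (1.02% and 0.0522%). The ADRB1 call in cohort 9 was lost without X10197, X10198, X10200, X10201 or X10203 (adjusted p up to 0.139). After median scaling CHRM2 (0.94) and ADRA1A (0.31) rose and ADRA2C (-0.60) fell in cohort 9, where 11.8% of genes were called higher and 18.3% lower. No receptor passed the test of the difference between cohorts, which 0.0131% of genes passed upward and 0.0% downward.

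The first biopsies already differed in CHRM2 between the cohorts. The lowest, median and highest levels were 0.485, 0.774 and 1.79 TPM in cohort 9 and 0.890, 2.37 and 4.16 TPM in cohort 13. The ranges overlapped between 0.890 and 1.79 TPM, and the upper 4 animals of cohort 13 all lay above the highest of cohort 9. The log2 difference, cohort 13 minus cohort 9, was 0.70 ± 0.22 (SE; limma adjusted p = 0.0390), the 1 call among the 10 receptors where 4.44% of genes were called higher and 11.8% lower. It was lost in 10 of 16 fits without 1 animal (without X10197, X10198, X10200, X10201, X10203, X10204, X10230, X10233, X10234 or X10236; adjusted p up to 0.0820). After median scaling CHRM2 (0.79), ADRA1D (0.62) and CHRM1 (0.42) were all called higher in cohort 13, beside 20.5% of genes called higher and 13.3% lower.

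CHRM4, the other Gi-coupled muscarinic receptor, had a lowest, median and highest level of 8.51, 17.0 and 32.5 TPM in the first biopsies and of 9.79, 16.2 and 23.8 TPM in the second. The ranges overlapped almost entirely, and the log2 change was 0.020 ± 0.12 (SE; limma adjusted p = 0.909). On TPM as deposited the CHRM4 change in drinkers was -0.10 ± 0.15 (SE; limma adjusted p = 0.623), with 5 drinkers higher and 5 lower. After median scaling CHRM4 fell in drinkers by 0.36 on the log2 scale (SE 0.13; limma adjusted p = 0.0399), with 9 of 10 drinkers lower. The difference between the drinker change and the control change was not called on that scale. CHRM4 shares part of its locus with MDK, which encodes the growth factor midkine, in the RefSeq annotation T2T-MFA8v1.1. The libraries did not keep strand, so reads from any shared stretch cannot be assigned to 1 of them. MDK averaged 10.01 TPM in the first and 10.5 TPM in the second biopsies, with a log2 change of 0.080 ± 0.11 (SE; limma adjusted p = 0.593). Its part in the CHRM4 values was not tested. Another annotated gene also overlaps each of ADRA1A, ADRA1B, ADRA1D, ADRA2A and CHRM3, and the same limit applies there. The gene at ADRA1A averaged 0.093 TPM and that at CHRM3 0.131 TPM. Those at ADRA1B, ADRA1D and ADRA2A, the last protein-coding, have no deposited level, and their part was not tested.

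CHRM1 and CHRM3, the Gq-coupled muscarinic receptors, were not called over all pairs. CHRM1 had a lowest, median and highest level of 63.4, 79.6 and 126 TPM in the first biopsies of drinkers and of 54.3, 88.2 and 118 TPM in the second. In controls it had 44.1, 56.9 and 108 TPM, then 73.4, 89.6 and 127 TPM. Controls were higher in the second biopsy in 5 of 6 animals and drinkers in 4 of 10, with overlapping ranges throughout. The log2 change of CHRM1 was 0.052 ± 0.14 in drinkers (SE; limma adjusted p = 0.786) and 0.53 ± 0.17 in controls (adjusted p = 0.232). CHRM3 had means of 15.3 TPM ± 6.12 and 17.6 TPM ± 3.61 in the first and second biopsies (SD, n = 16), a log2 change of 0.25 ± 0.13 (SE; limma adjusted p = 0.113) and higher second values in 10 of 16 animals.

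Within drinkers alone, 3 of the 10 receptors rose on TPM as deposited and none fell, beside 32.7% of all genes called higher and 3.23% lower. They were CHRM2 (log2 change 0.90 ± 0.20 SE, limma adjusted p = 0.00546), ADRA1A (0.45 ± 0.15, adjusted p = 0.0258) and ADRB1 (0.32 ± 0.12, adjusted p = 0.0350). The ADRA1A call was lost without X10201, X10203, X10206, X10227 or X10229 (adjusted p up to 0.0751), and the ADRB1 call without X10200, X10201, X10203, X10227 or X10229 (up to 0.0976). After median scaling, CHRM2 (0.64, adjusted p = 0.00801) was the only receptor still called higher in drinkers, while ADRA2C (-0.54), CHRM4 (-0.36) and ADRA1D (-0.34, adjusted p = 0.0477) were called lower. Among all genes on that scale 12.1% were called higher and 19.4% lower.

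Within controls none of the 10 was called, where 0.248% of all genes were called higher and 0.0522% lower. All 10 estimates were nonetheless above 0, with a median of 0.32 beside 0.12 over all genes, and 5 of the 10 had an unadjusted limma p below 0.05, as had 1961 of the 15324 genes tested. With 6 animals the intervals were wide. For CHRM2 the 95% interval of the control change ran from 0.0029 to 1.10, and for CHRM1 from 0.16 to 0.89.

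The test that sets drinkers against controls is the difference between their changes, and no receptor passed it by limma, nor did any gene in the table (0.0% in either direction; 1036 genes and 1 receptor had an unadjusted p below 0.05). CHRM1 had the lowest unadjusted p of the 10, with a difference of -0.47 ± 0.22 (SE; limma adjusted p = 0.634; 95% interval -0.93 to -0.014). The difference was 0.35 ± 0.33 for CHRM2 (95% interval -0.34 to 1.04), 0.17 ± 0.24 for ADRA1A (-0.33 to 0.68) and -0.048 ± 0.19 for ADRB1 (-0.44 to 0.35). In 7 of the 10 receptors the estimate was below 0, that is, the change in drinkers was less upward or more downward than in controls. The median estimate was -0.20 over the 10 receptors, beside 0.066 over all tested genes. For CHRM2 the difference was 0.12 ± 0.38 within cohort 9 and 0.59 ± 0.38 within cohort 13. Cohort 9 controls had a CHRM2 change of 1.14 ± 0.30, next to 1.26 ± 0.23 in cohort 9 drinkers, whereas cohort 13 controls had -0.040 ± 0.30 next to 0.55 ± 0.23 in cohort 13 drinkers. The cohort 13 values include the pairs X10226, X10227 and X10232, whose biopsies carry different RNA codes. After median scaling no receptor and no gene passed the drinker against control test either (0 called in each direction, and 1609 genes and 2 receptors with an unadjusted limma p below 0.05).

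**Figure D3:**
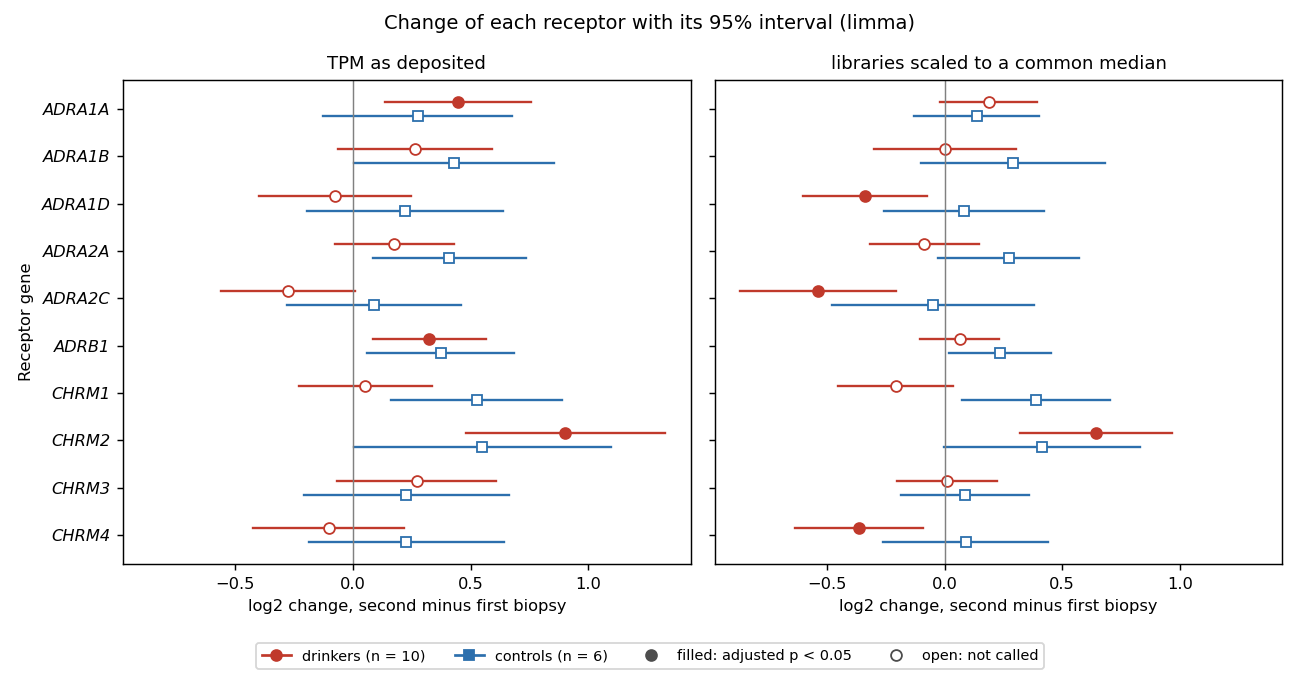
Log2 change from first to second biopsy of each receptor in drinkers (circles, n = 10) and controls (squares, n = 6) with 95% intervals from limma, on TPM as deposited (left) and after scaling libraries to a common median (right); filled symbols have an adjusted p below 0.05. CHRM2 in drinkers is filled in both panels, at 0.90 and 0.64, while ADRA1A and ADRB1 are filled only at the left and ADRA1D, ADRA2C and CHRM4 only at the right.

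Drinkers and controls were also set side by side within each biopsy. In the first biopsies no receptor differed between later drinkers and controls by limma, and no gene was called higher (0.0%) or lower (0.0%). The largest estimate was for ADRA1D, at 0.50 ± 0.27 higher in later drinkers (SE; limma adjusted p = 1.0). In the second biopsies none differed either, again with 0.0% of genes called in each direction, and CHRM2 had the largest estimate at 0.31 ± 0.20 (adjusted p = 0.709).

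Shares within a receptor family are not moved by a factor common to a whole library. The 4 muscarinic genes together had a median of 109 TPM in the first and 126 TPM in the second biopsies of drinkers. CHRM2 made up 1.22% ± 0.581 of that sum in drinkers before and 2.95% ± 1.05 after (SD, n = 10), higher in 9 of 10 animals (exact two-sided sign-flip p = 0.00391). In controls it went from 1.55% ± 0.699 to 2.15% ± 1.05 (n = 6, exact p = 0.406), and the drinker minus control difference of 1.13 percentage points had an exact permutation p of 0.144. In cohort 9 the CHRM2 share was higher in all 8 animals (0.936% to 3.10%, exact p = 0.00781, the smallest 8 pairs allow), and in cohort 13 in 5 of 8 (1.75% to 2.20%, exact p = 0.328).

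CHRM1 held most of the muscarinic sum throughout, at 69.5% ± 3.23 in the first and 69.9% ± 3.90 in the second biopsies (SD, n = 16; exact p = 0.754). In drinkers it went from 71.0% to 69.4% (lower in 7 of 10) and in controls from 67.0% to 70.7% (higher in 5 of 6). The drinker minus control difference was -5.25 percentage points (exact permutation p = 0.0422, and 0.2335 after Benjamini-Hochberg adjustment over the 10 receptors). For CHRM3 that difference was 3.83 points (exact permutation p = 0.0467, adjusted p = 0.2335). CHRM4 went from 15.7% ± 2.38 to 13.6% ± 1.56, lower in 12 of 16 animals (exact p = 0.00903). Within the adrenergic sum, ADRA2C went from 20.3% ± 4.06 to 15.8% ± 3.77, lower in 12 of 16 (exact p = 0.00360), and in cohort 9 lower in all 8 animals (21.2% to 15.04%, exact p = 0.00781). In cohort 13 its share was lower in 4 of 8 (19.4% to 16.6%, exact p = 0.219). ADRA1D went from 17.5% ± 4.82 to 15.5% ± 4.04, lower in 13 of 16 animals (exact p = 0.0169). The 10 share tests for each set of animals are otherwise given unadjusted, and shares of 1 family depend on each other because they sum to the whole.

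**Figure D4:**
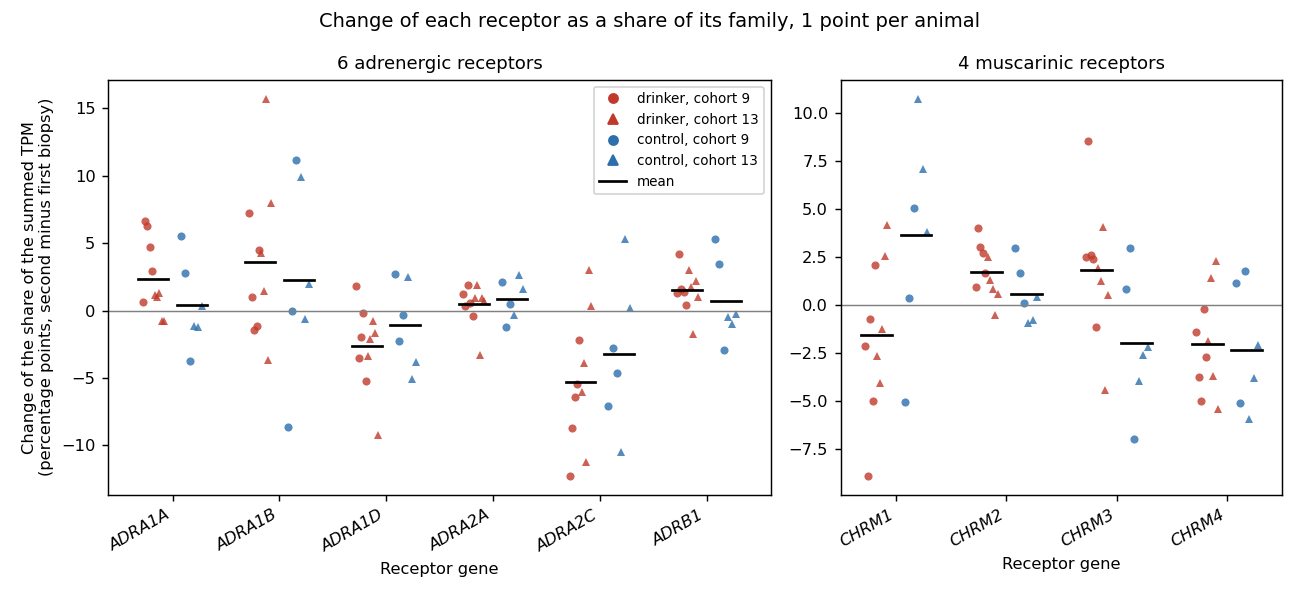
Change of each receptor's share of its family's summed TPM from first to second biopsy, in percentage points, with 1 point per animal (colours for drinkers and controls, shapes for cohorts) and the mean of each kind as a black bar; the vertical scales of the panels differ. ADRA2C points lie mostly below 0 (12 of 16 animals) and CHRM2 points mostly above it (13 of 16).

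The authors' deposited table carries their own fold changes for drinkers and for controls. In the authors' deposited table, 4 of the 10 receptors had an FDR below 0.05 in drinkers, CHRM2 (log2 fold change 1.15) and ADRA1A (0.34) upward and ADRA2C (-0.54) and CHRM4 (-0.36) downward. Over the 18922 genes with an FDR in the authors' deposited table, 14.1% passed upward and 15.4% downward in drinkers. In controls none of the 10 passed in the authors' deposited table, where 1.04% of genes passed upward and 0.74% downward.

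Markers of other cell types moved between the biopsies as well. Of the 10 neuronal markers 8 rose and none fell over all pairs, in the fit where 32.9% of all genes were called higher and 3.69% lower, and their mean log2 change was above 0 in 12 of 16 animals and in all 8 of cohort 9. Of the 8 oligodendrocyte markers 3 rose and none fell, with a mean log2 change of 1.06 ± 0.910 (SD, n = 8) in cohort 9 and 0.036 ± 1.09 in cohort 13. That mean was 0.82 ± 1.02 (n = 10) in drinkers and 0.093 ± 1.17 (n = 6) in controls. Of the 10 microglial markers 9 fell. Of the 5 blood markers 4 fell, with a mean change of -2.56 ± 1.93 (SD, n = 8) in cohort 9, the cohort with the larger CHRM2 and ADRA1A changes, and of 0.032 ± 1.31 in cohort 13. When the limma fit took the mean marker level of neurons, of astrocytes and of oligodendrocytes as covariates, none of the 10 receptors was called, and 0.881% of all genes were called higher and 0.692% lower. In that fit the change over all pairs was 0.21 ± 0.13 for CHRM2 (SE; limma adjusted p = 0.491), 0.15 ± 0.082 for ADRB1 and 0.052 ± 0.10 for ADRA1A. The part of microglial and blood RNA in these changes was not tested.

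ADRA2B, ADRB3 and CHRM5, further receptors of these families, averaged under 1 TPM and were tested only in a limma fit with no minimum level, where 13.6% of all genes were called higher and 2.06% lower. CHRM5, the M5 receptor, a Gq-coupled subtype, had a lowest, median and highest level of 0.021, 0.131 and 0.5 TPM in the first and of 0.223, 0.398 and 0.717 TPM in the second biopsies. The groups overlapped, and CHRM5 rose by 0.28 ± 0.052 on the log2(TPM + 1) scale (SE; limma adjusted p = 0.00315), on between 1 and 54 reads a library. ADRA2B had a log2 change of 0.15 (limma adjusted p = 0.234). ADRB3 had between 0 and 6 reads in any library, too few to describe a change.

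Genes that act with these receptors were counted on the same all-pairs fit, from lists compiled by role. In that fit 32.9% of all genes were called higher and 3.69% lower, and after median scaling 9.7% and 17.1%. Among 6 tested subunits of nicotinic receptors, the ion channel receptors for acetylcholine, 1 rose and none fell. It was CHRNB1 (0.21), a subunit of the muscle-type channel. CHRNA2 (-0.28, limma adjusted p = 0.0676), CHRNA7 (0.13) and CHRNA1 (0.069) were not called. After median scaling CHRNA2 was called lower (-0.49, adjusted p = 0.0120), and none of the 6 was higher. Of 9 tested genes for synthesis, transport and breakdown of acetylcholine and noradrenaline, 4 rose and 1 fell. PNMT, which makes adrenaline from noradrenaline, fell from 4.92 TPM ± 1.69 to 3.06 TPM ± 0.923 (SD, n = 16; log2 change -0.54, limma adjusted p = 0.00248). The monoamine oxidases MAOA (0.25) and MAOB (0.27) and the transporter SLC22A3 (0.22) rose. After median scaling PNMT was still lower (-0.75, adjusted p = 0.00124), while MAOA (0.039), MAOB (0.060), SLC22A3 (0.0098) and CHRNB1 (-7.34e-04) were not called. On that scale none of the 9 was called higher and 2 were lower.

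In the Gq arm 3 of 17 tested genes rose and 1 fell, beside 32.9% and 3.69% of all genes. PLCB2, a phospholipase C, fell from 12.9 TPM ± 7.25 to 7.63 TPM ± 2.56 (log2 change -0.59, limma adjusted p = 0.00294). GNA14, a Gq-family alpha subunit, rose from 3.76 TPM ± 1.52 to 5.54 TPM ± 1.89 (0.47, adjusted p = 0.00318), as did the diacylglycerol kinase DGKG (0.34) and the protein kinase C gene PRKCE (0.37). In the Gi and Go arm 6 of 12 rose and none fell, among them the potassium channel subunit KCNJ6 (0.54), the alpha subunits GNAI1 (0.65) and GNAI3 (0.41) and the beta subunit GNB5 (0.30). After median scaling PLCB2 (-0.80), GNA14 (0.25), KCNJ6 (0.32) and GNAI1 (0.44) were still called, and DGKG, PRKCE, GNAI3 and GNB5 were not. The scaled counts were 1 higher and 4 lower of 17 in the Gq arm and 2 higher and 1 lower of 12 in the Gi and Go arm, beside 9.7% and 17.1% of all genes.

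In the Gs and cyclic AMP arm 4 of 16 tested genes rose and none fell, all of them subunits of protein kinase A: PRKAR1A (0.47), PRKAR2B (0.56), PRKACB (0.63) and PRKACA (0.44). The share called higher in all genes was 32.9%. Of the 18 tested genes for receptor desensitisation and RGS proteins, which shorten G protein signals, 4 rose and 1 fell. RGS10 fell from 13.6 TPM ± 3.19 to 10.01 TPM ± 2.62 (SD, n = 16; log2 change -0.41, limma adjusted p = 0.00148), in 15 of 16 animals. RGS4 (0.56), RGS7 (0.37) and RGS8 (0.38) rose. Among channels that these receptors open or close, KCNH5 (0.51, limma adjusted p = 0.0325) and KCNQ5 (0.37) rose, while HCN4 gave 0.23 (adjusted p = 0.120). After median scaling RGS10 (-0.62), RGS4 (0.34) and PRKAR2B (0.34) were still called, and PRKAR1A, PRKACB, PRKACA, RGS7, RGS8, KCNH5 and KCNQ5 were not. The scaled counts were 1 higher and none lower of 16 in the Gs and cyclic AMP arm, and 1 higher and 5 lower of 18 for desensitisation and RGS genes.

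The genes whose change from animal to animal was most like that of CHRM2, after subtracting each animal's median change over all genes, were TBCK (Pearson r = 0.963), EPHA7 (0.961) and RAB3GAP2 (0.960) over 16 animals. For ADRB1 they were TRERF1 (0.841), TMEM200C (0.782) and EGR4 (0.767). These are the highest values among 15324 genes searched, over animals of 2 cohorts that differ in depth and RNA code, and they are given as a description.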

How the data were processed

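Libraries were poly-A selected, single-end and without strand, per the labels' protocols. The submitters' processing notes name STAR 2.5.2b, HTSeq 0.6.1p1 and DESeq2. Settings, genome build and annotation: not given in the sources used here. A deposited table holds TPM for 32 libraries and the authors' log2 fold changes with p-values and FDR for drinkers and controls, per the file headers. The tests had been planned for either counts or TPM, and the TPM plan applied.

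Genes with a mean of at least 1 TPM were tested on log2(TPM + 1) with limma 3.58.1 in R 4.3.3 (limma-trend, animal as a block, Benjamini-Hochberg adjustment over all 15324 genes, threshold 0.05). Drinkers and controls shared 1 fit, and their difference and that of the cohorts were tested as interactions. Levels within 1 biopsy were compared with cohort, or kind of animal, as a covariate. Pairs come from animal numbers in the sample titles. Deviations from group means correlated within an animal with a median r of 0.52 (above 0.1 in 14 of 16 animals) and between animals with -0.054. Whole reads were recovered from the steps of the TPM values for 29411 of 29437 genes found in at least 2 libraries, with a tolerance of 1e-06. Those reads gave the depths and a limma-voom fit, and leave out 26 abundant genes. Read recovery and the paired limma-trend fit were tested on simulated data. The receptors, gene lists and marker lists were chosen with earlier results of these data known. All 10 receptors are named, and of each list the 4 tested genes with the lowest p. Some genes of these lists are not reported here. Alternatives were median scaling, TPM rescaled without mitochondrially encoded genes, a pseudocount of 0.1, no minimum level, no animal block, limma-voom, marker covariates, pairs with 1 RNA code and leaving out each animal. Within-cohort values and family shares were added after seeing the data. Tables used pandas 2.3.3 and numpy 2.4.6 in Python 3.11.15, and figures matplotlib 3.10.9.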

Additional observations from a re-analysis of the deposited data

Results flagged for a closer look

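Of 60 groups of 6 or 10 values screened, 4 held a value far from the rest of its group by Dixon's criterion at 95%, which chance alone gives in about 1 group in 20. Of these 4, 3 came from control animal X10233 of cohort 13. Its second biopsy had 20.3 TPM of ADRA2C, where the other 5 controls had at most 11.4 TPM, and 10.3 TPM of ADRA2A. Its log2 change of ADRA2C was 0.857. The other value was the first-biopsy CHRM4 level of 32.5 TPM in drinker X10236 of cohort 13, whose second biopsy had 16.3 TPM. On TPM as deposited, neither ADRA2C nor CHRM4 was called over all pairs, in drinkers or in controls, so no call could be lost. None was gained without either animal. After median scaling, where both genes were called lower in drinkers, single animals were not left out, so the part of these values there was not tested.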

How the results depend on the processing

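Over all pairs 5 receptors were called, with both values of a pair from the same animal and the animal as a block. Without the animal block 2 remained called (CHRM2 and ADRB1). Of all 15324 genes, 2698 were then called higher and 191 lower, against 5042 and 566 with the block. The receptor count was 1 after median scaling, 3 with TPM rescaled without mitochondrially encoded genes, 3 with no minimum level, 3 with limma-voom, 0 with marker covariates, 3 in pairs with 1 RNA code, 3 within cohort 9, 0 within cohort 13 and 3 to 5 when 1 animal was left out. Calls over all genes moved too, with 1486 higher and 2623 lower after median scaling and 2769 and 1408 without mitochondrially encoded genes. They were 4074 and 616 (of 29958) with no minimum level, 1841 and 1667 with limma-voom, and 135 and 106 with marker covariates. In pairs with 1 RNA code they were 3529 and 530, within cohort 9 they were 4676 and 719, and within cohort 13 they were 156 and 8. In drinkers 3 receptors were called. The count was 1 without the animal block, 1 with no minimum level, 2 with limma-voom (ADRB1 0.19, adjusted p = 0.129), 0 with marker covariates, 1 in pairs with 1 RNA code, and 1 to 3 when 1 animal was left out. It was 4 after median scaling, of which only CHRM2 was among the 3. With TPM rescaled without mitochondrially encoded genes it was 3, with ADRB1 lost (0.21, adjusted p = 0.0952) and ADRA2C called lower (-0.43, adjusted p = 0.0326). Over all genes, drinkers had 5005 called higher and 495 lower. Those numbers were 2332 and 111 without the animal block, 4078 and 462 (of 29958) with no minimum level, and 2555 and 1851 with limma-voom. They were 97 and 85 with marker covariates and 1449 and 168 in pairs with 1 RNA code. Median scaling gave 1853 and 2972, and leaving out mitochondrially encoded genes gave 3524 and 1405. For the cohort difference in first biopsies, where 1 receptor was called, the count was 3 after median scaling, 3 with limma-voom, 0 with no minimum level and 0 to 2 when 1 animal was left out. Over all genes that comparison called 680 higher and 1805 lower, 3137 and 2033 after median scaling, and 1717 and 3256 with limma-voom. With no minimum level it called 641 and 3062 of 29958. CHRM2 was called over all pairs and in drinkers under each alternative named here except marker covariates and, for all pairs, the cohort 13 animals alone. No called change of a receptor turned its direction. With limma-voom ADRA2C fell in cohort 9 by 0.58 (adjusted p = 0.0403), and with TPM rescaled without mitochondrially encoded genes by 0.48 (adjusted p = 0.0315). Where an alternative changed a count, the cause was not tested.

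Depth limits the estimates: CHRM2 had as few as 27 reads in a library, and ADRB3 none in some. The RNA code of cohort 9 is not used in cohort 13, the marks of drinkers and controls rest on 1 table header, and 6 controls leave wide intervals. Reads of overlapping genes cannot be separated without strand. Family shares were recomputed by cohort only.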
